A study of Mus musculus with 20 samples.

Results

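The integrated stress response and the unfolded protein response were followed in mouse liver through 10 genes: Atf4, Ddit3, Atf3, Trib3, Chac1, Asns, Sesn2, Xbp1, Hspa5 and Dnajb9. They were chosen by name, with earlier results of these data known, so the list is not independent of the data. Each was taken through its Ensembl identifier, and all 10 of 10 identifiers were found among the 22361 genes of the data. Gene expression was measured in whole liver of 20 female C57BL/6 mice, 1 Affymetrix array per mouse, as log2 intensities. One group of 4 mice received saline, and 3 groups of 4 received the antisense oligonucleotide SPC4955, SPC4061 or SPC3847 at 10 mg/kg. A further group of 4 received SPC3833 at 5 mg/kg. All doses went into a vein on 3 consecutive days, days 0 to 2. The treatment protocol places the collection of the livers on day 3, whereas the sample source gives 4 days after the first dose. Antisense oligonucleotides are short synthetic strands designed to base-pair with a chosen RNA. The 4 are known here by code only, and each was set against saline to see which liver genes respond.

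The integrated stress response starts when a kinase that senses stress (PERK for misfolded protein in the endoplasmic reticulum, GCN2 for missing amino acids, PKR for double-stranded RNA, HRI for lack of haem) phosphorylates the translation initiation factor eIF2. Most translation then slows, while the mRNA of the transcription factor ATF4 is translated more, and ATF4 switches on genes for amino acid supply, redox control and, with CHOP, cell death. The unfolded protein response adds the sensors IRE1, which splices the Xbp1 mRNA, and ATF6, and both raise chaperones of the endoplasmic reticulum. Liver secretes much protein and expresses these chaperones strongly. Gene-level array values measure mRNA only: they hold neither the translation of Atf4, nor the splicing of Xbp1, nor any protein.

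Some promoters of these genes hold DNA elements through which the response is known to act, and 4 promoters are shown. They belong to the genes that rose (Atf3 and Trib3) or are examples that hold a textbook element (Chac1 and Hspa5). The promoter of Asns also holds such an element and is not printed. Each line gives the 250 bases before the annotated start of the gene, 5′ to 3′ on the strand of the gene, from RefSeq on GRCm38.p6; all 10 genes had an entry. Capitals mark the C/EBP-ATF response element TGATGNAA, on either strand, in Atf3 and Chac1, and the ER stress response element in Hspa5.
Atf3 (chr1:191183334-191183583, minus strand): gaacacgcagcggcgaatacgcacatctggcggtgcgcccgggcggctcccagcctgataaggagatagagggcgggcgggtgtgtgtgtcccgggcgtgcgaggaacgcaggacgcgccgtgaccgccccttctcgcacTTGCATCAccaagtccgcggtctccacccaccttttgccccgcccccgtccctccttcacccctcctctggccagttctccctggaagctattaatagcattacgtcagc
Trib3 (chr2:152344061-152344310, minus strand): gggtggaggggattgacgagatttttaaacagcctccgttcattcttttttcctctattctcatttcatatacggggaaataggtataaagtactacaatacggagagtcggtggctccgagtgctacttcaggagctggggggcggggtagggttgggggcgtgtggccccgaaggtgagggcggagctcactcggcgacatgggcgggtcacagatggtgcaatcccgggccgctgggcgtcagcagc
Chac1 (chr2:119350992-119351241, plus strand): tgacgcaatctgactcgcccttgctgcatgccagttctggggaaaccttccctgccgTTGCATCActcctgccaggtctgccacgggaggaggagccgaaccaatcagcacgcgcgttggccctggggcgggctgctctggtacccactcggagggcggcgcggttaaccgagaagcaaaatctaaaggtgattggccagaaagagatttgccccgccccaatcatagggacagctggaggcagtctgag
Hspa5 (chr2:34771840-34772089, plus strand): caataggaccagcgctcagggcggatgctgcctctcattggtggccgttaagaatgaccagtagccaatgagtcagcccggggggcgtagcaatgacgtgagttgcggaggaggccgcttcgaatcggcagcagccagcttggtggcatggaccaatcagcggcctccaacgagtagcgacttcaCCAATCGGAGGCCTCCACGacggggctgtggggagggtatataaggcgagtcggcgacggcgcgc

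The motif TGATGNAA, through which ATF4 and C/EBP proteins bind, was found in the windows of Atf3, Chac1, Trib3 and Asns, 4 of the 10 genes. The windows searched ran from 250 bases before to 50 bases after the start, on both strands, and 3.97% of the 32851 RefSeq promoters of this length held the motif. In Atf3 it spanned positions -110 to -103, in Chac1 -193 to -186 and in Asns -23 to -16. In Trib3 it lay after the start, at positions 15 to 22, and so outside the bases printed above. The ER stress response element, the site of ATF6 in chaperone promoters, was found in Hspa5 at positions -65 to -47 and in 0.119% of all promoters. The cyclic AMP response element TGACGTCA, present in 1.79% of promoters, and the core of the unfolded protein response element TGACGTGG, present in 0.676%, matched none of the 10 windows. No match overlapped another. A match says only that these letters occur in the window.

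Of the 40 differences from saline (10 genes, 4 oligonucleotides), 2 passed the threshold: Atf3 and Trib3, both higher with SPC4955. A gene was called when its adjusted p was below 0.05 in limma, a linear model fitted to all 22361 genes and all 20 arrays, with Benjamini-Hochberg adjustment over all genes of a comparison. Unadjusted, 12 of the 40 had p below 0.05: 5 with SPC4955, 3 with SPC3833, and 2 each with SPC4061 and SPC3847. Over all genes this share was 18.1%, 19.3%, 24.8% and 14.7%, in that order. For 36 of the 40, the 95% interval of the difference lay within 1.5-fold of saline in both directions, beside 91.3% of all such intervals. The background to the 2 calls was 6.59% of all genes called for SPC4955, 7.06% for SPC3833, 11.5% for SPC4061 and 3.33% for SPC3847. The 4 comparisons share the same 4 saline arrays, so an unusually high or low saline mean enters all of them.

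**Figure D1:**
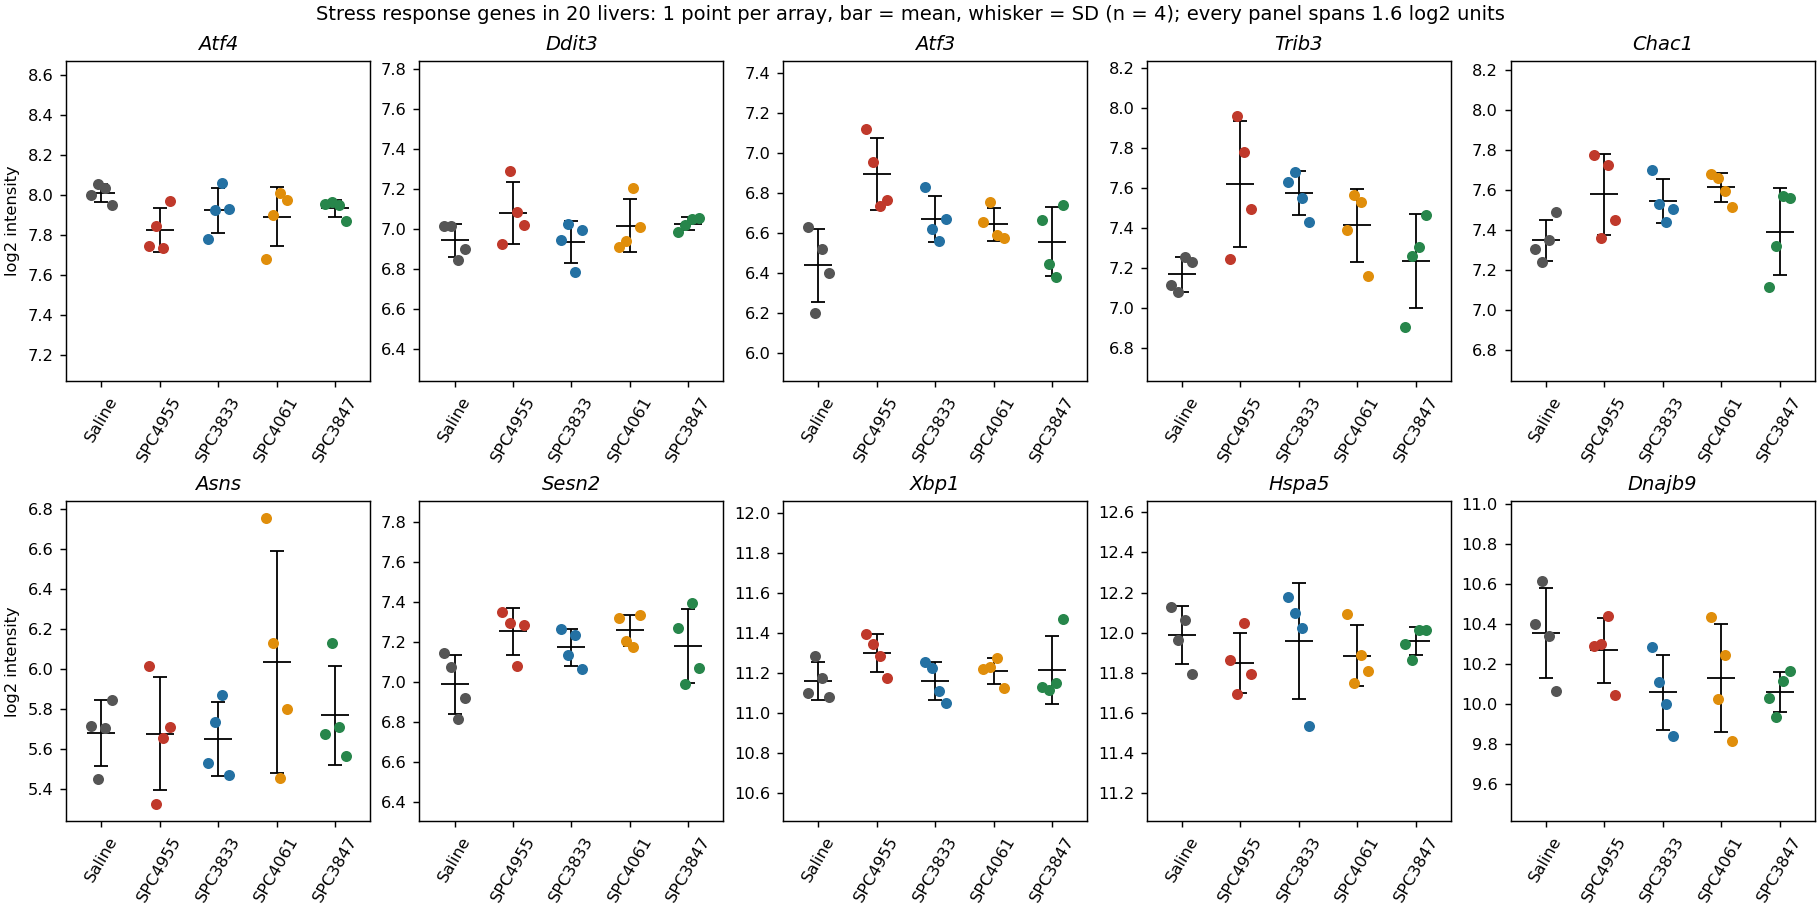
Log2 intensity of each of the 10 genes in the 20 livers, by treatment group, with 1 point per array and the mean and SD of 4 arrays. Every panel spans the same 1.6 log2 units; Atf3 with SPC4955 lies above all saline arrays, and Asns with SPC4061 has the widest spread (SD 0.55).

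**Figure D2:**
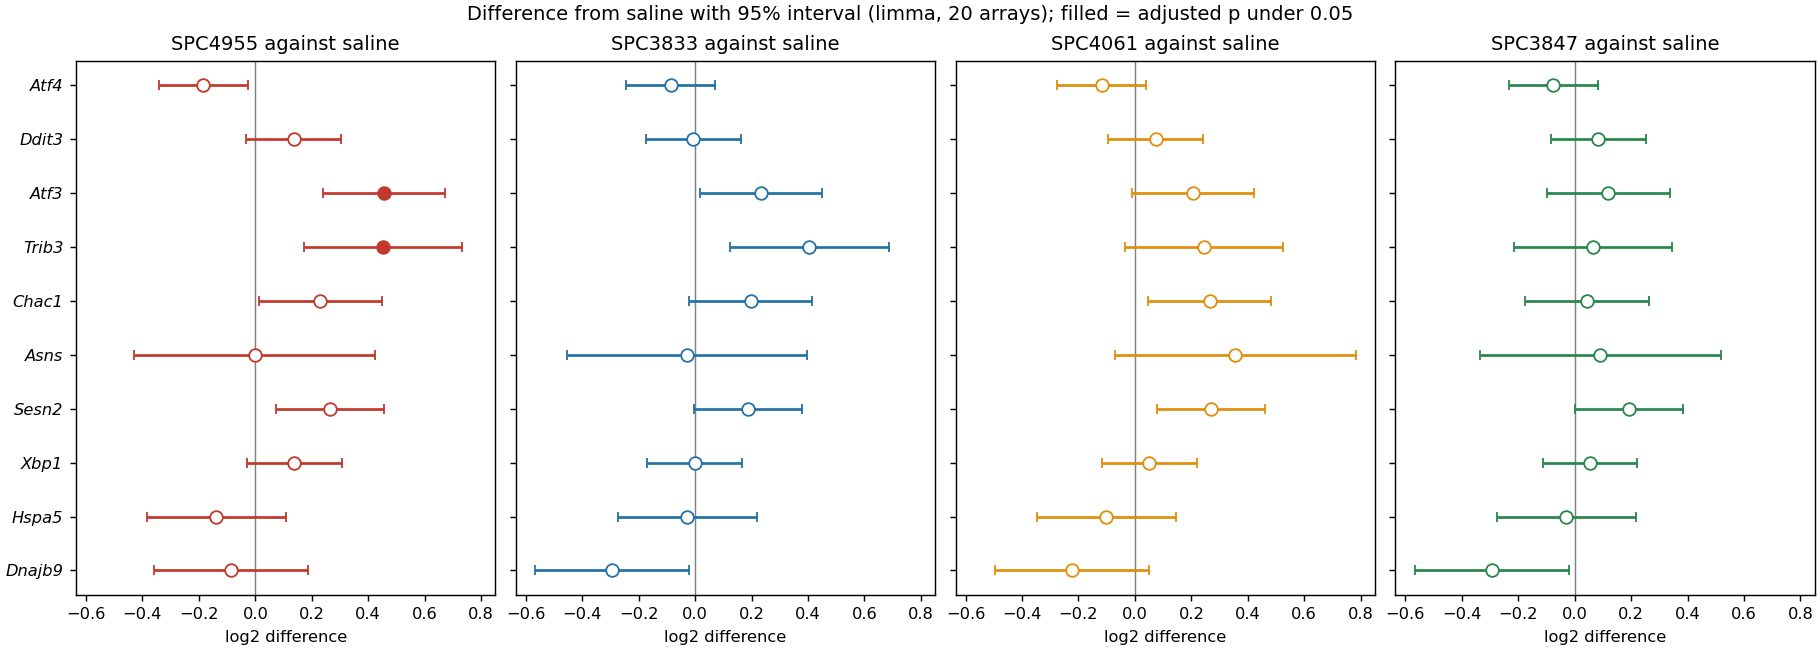
Log2 difference from saline with its 95% interval for the 10 genes and the 4 oligonucleotides, from the model over 20 arrays; a filled point passed an adjusted p of 0.05. Only Atf3 and Trib3 with SPC4955 are filled.

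Atf3 and Trib3 are genes of the ATF4 branch. ATF3 is a transcription factor of the ATF family that many injuries switch on, and TRIB3 is a pseudokinase that binds ATF4 and CHOP and restrains AKT signalling in liver. Atf3 (ENSMUSG00000026628) measured 6.63, 6.20, 6.52 and 6.40 in the 4 saline livers and 7.12, 6.95, 6.73 and 6.76 with SPC4955. The lowest SPC4955 liver lay above the highest saline liver, so these groups did not overlap. Non-overlapping and higher values with SPC4955 were found in 7.68% of all genes. The mean rose from 6.44 ± 0.18 to 6.89 ± 0.18 (SD, n = 4 each), a difference of 0.46 on the log2 scale (SE 0.10, 95% interval 0.24 to 0.67), or 1.37-fold (limma adjusted p = 0.0103). In whole tissue, a change in the number of cells of a type and a change in RNA per cell cannot be told apart.

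Trib3 (ENSMUSG00000032715) measured 7.11, 7.08, 7.26 and 7.23 with saline and 7.25, 7.96, 7.78 and 7.50 with SPC4955. SPC4955 livers 2, 3 and 4 lay above every saline liver, and the first lay within the saline range. The mean rose from 7.17 ± 0.09 to 7.62 ± 0.32, a difference of 0.45 on the log2 scale (SE 0.13, 95% interval 0.17 to 0.73), or 1.37-fold (limma adjusted p = 0.048). These 2 genes made up the higher calls with SPC4955, 2 of 10, beside 4.22% of all genes called higher. None of the 10 was called lower, beside 2.37% of all genes. The median difference of the 10 was 0.14, above the third quartile of all genes (median 0.01, quartiles -0.07 and 0.11). Of the 10 means, 6 lay above saline and 4 below. With SPC4061, where 0 of the 10 were called, the median was also 0.14, above the third quartile of all genes (0.12).

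The call for Atf3 was the steadier one. For this comparison, single arrays were left out of the saline and SPC4955 groups. The Atf3 call was lost only when the model was fitted to the 8 arrays compared (limma adjusted p = 0.0711). Over the other settings and left-out arrays the limma adjusted p lay between 0.00477 and 0.0415. Saline replicate 1 and SPC4955 replicate 1 deviated most from their groups over all genes (SD of the deviations 0.270 and 0.236), and the latter held the highest Atf3 value of the series. SPC3847 replicate 4 followed closely, at 0.227, and was not left out with them. Without saline replicate 1 and SPC4955 replicate 1, the Atf3 difference was 0.44 (limma adjusted p = 0.0181). The Trib3 call was narrow: with 1 array of either group left out it held only without SPC4955 replicate 1 (limma adjusted p = 0.00889). Without saline replicate 1, 2, 3 or 4 the limma adjusted p was 0.0946, 0.119, 0.0669 and 0.0862. Without SPC4955 replicate 2, 3 or 4 it was 0.184, 0.135 and 0.0588. Median centring (limma adjusted p = 0.0696), quantile normalization (0.0993), the fit of 8 arrays (0.132) and the ordinary statistic (0.0772) also ended it.

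**Figure D3:**
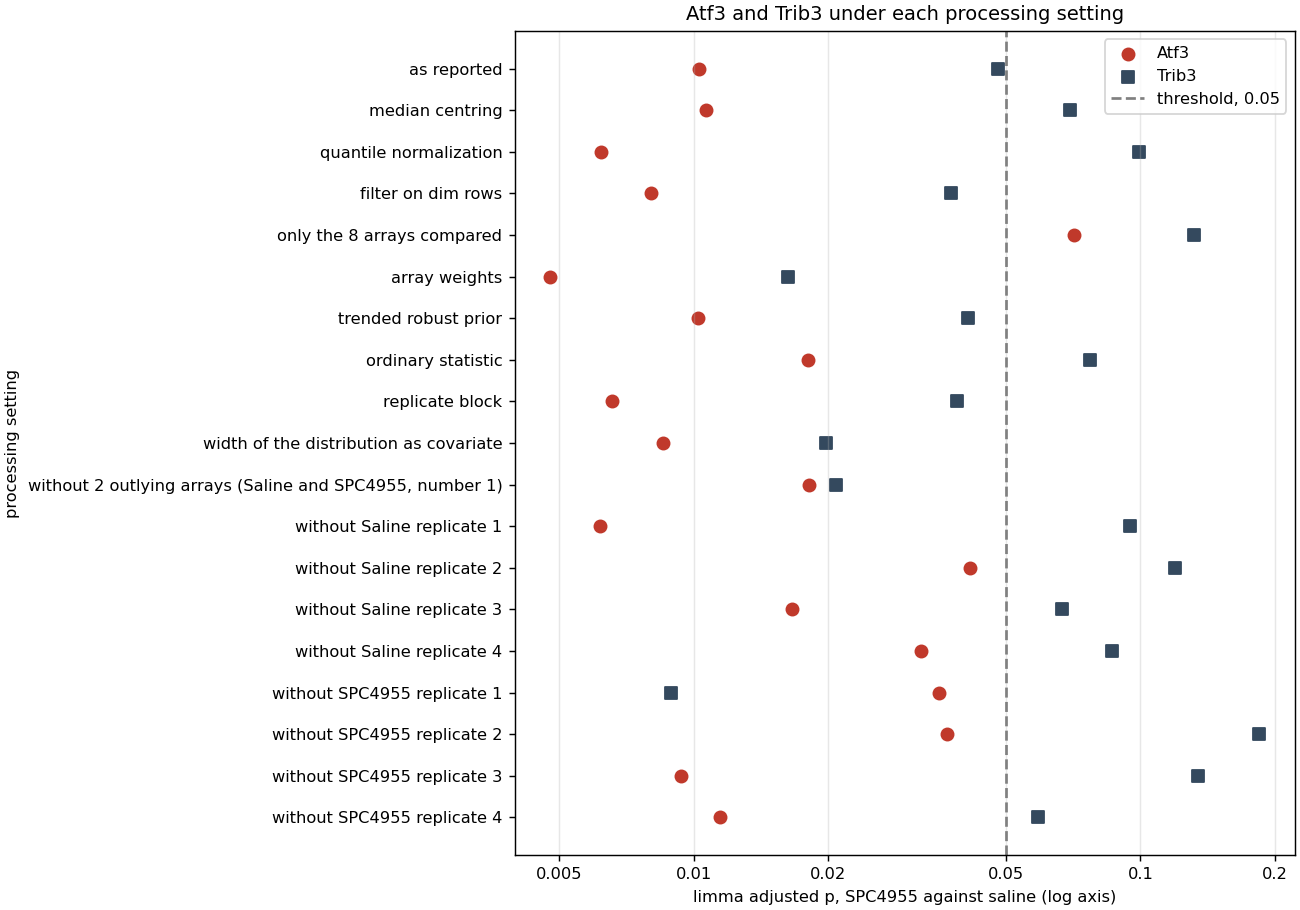
Limma adjusted p of Atf3 and Trib3, SPC4955 against saline, as reported and under each other setting, on a log axis with the threshold of 0.05 dashed. Atf3 passes in every setting but the fit of 8 arrays; Trib3 lies on both sides, from 0.00889 to 0.184.

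With the other oligonucleotides both genes lay above saline in the mean without passing the threshold. Atf3 measured 6.83, 6.62, 6.56 and 6.67 with SPC3833, 6.65, 6.75, 6.59 and 6.57 with SPC4061 and 6.66, 6.44, 6.38 and 6.74 with SPC3847. Each of these groups overlapped saline. Its differences were 0.23 (limma adjusted p = 0.218), 0.21 (0.227) and 0.12 (0.698), in that order. Trib3 measured 7.63, 7.68, 7.55 and 7.43 with SPC3833, all above the saline livers, a difference of 0.40 (95% interval 0.12 to 0.69, limma adjusted p = 0.0778). Non-overlapping and higher values with SPC3833 were found in 9.1% of all genes. The Trib3 difference passed in only 2 of 18 other settings and left-out arrays. These were the fit of 8 arrays (limma adjusted p = 0.0119) and the fit with array weights (0.047). Over all 18 the limma adjusted p reached 0.182. With SPC4061, Trib3 measured 7.39, 7.57, 7.53 and 7.16, and with SPC3847 6.91, 7.26, 7.30 and 7.46. Both groups overlapped saline, with differences of 0.24 (limma adjusted p = 0.269) and 0.06 (0.903). The direction with SPC3847 turned without SPC3847 replicate 4 (-0.01). The order of the means was the same for both genes, SPC4955 highest, then SPC3833, SPC4061, SPC3847 and saline, and none of the neighbours in that order differed past the threshold.

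Sesn2 and Chac1 are further stress targets. SESN2 is a leucine sensor that restrains mTORC1 and is known as a target of both ATF4 and p53, and CHAC1 is an enzyme that breaks down glutathione. Sesn2 (ENSMUSG00000028893) measured 7.14, 7.07, 6.81 and 6.92 with saline, 7.35, 7.30, 7.08 and 7.28 with SPC4955 and 7.26, 7.13, 7.23 and 7.06 with SPC3833. It measured 7.32, 7.20, 7.17 and 7.33 with SPC4061 and 7.27, 6.99, 7.39 and 7.07 with SPC3847. Every SPC4061 liver lay above every saline liver, as in 13.1% of all genes, and the other 3 groups overlapped saline. Against saline the differences were 0.26 with SPC4955 (limma adjusted p = 0.0988), 0.19 with SPC3833 (0.275), 0.27 with SPC4061 (0.0636) and 0.19 with SPC3847 (0.34). None passed. With SPC4061 it passed in only 3 of 18 other settings and left-out arrays. It did so without saline replicate 1, one of the 2 arrays that stood apart (difference 0.32, limma adjusted p = 0.037). The others were the fit without both of those arrays (0.0366) and the fit with array weights (0.0129).

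Among the 10 genes, Sesn2 followed the width of the array's distribution most closely. Within groups its values correlated at 0.62 with the quartile range of the array, over 20 arrays, as a description. This range was 3.02 to 3.20 in SPC4061 arrays and 2.81 to 3.15 in saline arrays. With the width as a covariate, the Sesn2 difference with SPC4061 was 0.16 (limma adjusted p = 0.272) against 0.27 without it.

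Chac1 (ENSMUSG00000027313) measured 7.31, 7.24, 7.35 and 7.49 with saline and 7.68, 7.66, 7.59 and 7.52 with SPC4061, which did not overlap. Non-overlapping and higher values with SPC4061 were found in 13.1% of all genes, and 2 of the 10 stress genes, Sesn2 and Chac1, were among them. The Chac1 difference with SPC4061 was 0.27 (95% interval 0.05 to 0.48, limma adjusted p = 0.114). It passed in only 3 of 18 other settings and left-out arrays. These were median centring (limma adjusted p = 0.0475), the fit of 8 arrays (0.0459) and the width as a covariate (0.0419). The highest of the 18 was 0.358, after quantile normalization. With SPC4955 it measured 7.78, 7.36, 7.73 and 7.45, with SPC3833 7.70, 7.53, 7.44 and 7.51 and with SPC3847 7.11, 7.32, 7.57 and 7.56. These 3 groups overlapped saline, with differences of 0.23, 0.20 and 0.04 (limma adjusted p = 0.242, 0.322 and 0.918).

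Asns (ENSMUSG00000029752) encodes asparagine synthetase, a classical target of the amino acid response. It measured 5.72, 5.45, 5.70 and 5.84 with saline and 6.75, 6.13, 5.45 and 5.80 with SPC4061. SPC4061 livers 1 and 2 lay above all saline livers, and the other 2 lay within the saline range or at its edge. The difference was 0.36 (95% interval -0.07 to 0.78, limma adjusted p = 0.291). It was 0.12 without SPC4061 replicate 1, the highest array, and 0.55 without SPC4061 replicate 3, and passed in neither case. With the other 3 oligonucleotides Asns lay within 0.09 of saline, with single livers between 5.32 and 6.13. Asns lay below the median of the array in 19 of 20 arrays.

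Atf4, at the head of the response, and Ddit3, a transcription factor gene that ATF4 induces, did not pass in any comparison with saline. Atf4 (ENSMUSG00000042406) measured 8.003, 8.06, 8.03 and 7.95 with saline and 7.75, 7.85, 7.74 and 7.97 with SPC4955. SPC4955 livers 1, 2 and 3 lay below every saline liver. The difference of -0.18 (95% interval -0.34 to -0.03) did not pass (limma adjusted p = 0.179), but did after quantile normalization (difference -0.24, limma adjusted p = 0.0405). That was the only pass among 18 other settings and left-out arrays. With the other 3 oligonucleotides the Atf4 difference lay between -0.12 and -0.08. No interval for Atf4 reached above 1.06-fold of saline. Ddit3 (ENSMUSG00000025408), which encodes CHOP, the factor tied to cell death in prolonged stress, measured 7.01, 7.01, 6.85 and 6.90 with saline and 6.92, 7.29, 7.09 and 7.02 with SPC4955. Its differences lay between -0.01 with SPC3833 and 0.14 with SPC4955 (limma adjusted p = 0.977 and 0.42), and no interval reached above 1.24-fold.

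The 3 genes of the unfolded protein response proper showed no call either. XBP1 is the transcription factor downstream of IRE1, HSPA5 (BiP) the main chaperone of the endoplasmic reticulum, and DNAJB9 (ERdj4) a co-chaperone of BiP and a known XBP1 target. All 3 were above the third quartile of every array. Xbp1 (ENSMUSG00000020484) measured 11.10, 11.29, 11.18 and 11.08 with saline and 11.40, 11.34, 11.28 and 11.17 with SPC4955. Its differences lay between -0.00 and 0.14, and no interval reached above 1.24-fold. Hspa5 (ENSMUSG00000026864) measured 12.13, 11.96, 12.06 and 11.79 with saline and 11.86, 11.69, 12.05 and 11.79 with SPC4955. Its mean lay below saline with all 4 oligonucleotides, by -0.14 to -0.03, but 2 of these directions turned when 1 array was left out. With SPC3833 the difference was 0.02 without saline replicate 1 and 0.11 without SPC3833 replicate 4. With SPC3847 it was 0.02 without saline replicate 1 and 0.00 without SPC3847 replicate 2. No Hspa5 interval reached above 1.16-fold.

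Dnajb9 (ENSMUSG00000014905) also lay below saline in the mean with all 4 oligonucleotides, though with SPC4955 the difference was 0.00 without saline replicate 2, the highest array. It measured 10.40, 10.61, 10.34 and 10.06 with saline and 10.29, 10.30, 10.44 and 10.05 with SPC4955. It measured 10.29, 10.11, 10.00 and 9.84 with SPC3833, 10.44, 10.03, 10.24 and 9.81 with SPC4061 and 10.03, 9.94, 10.11 and 10.17 with SPC3847. Every group overlapped saline, whose replicate 4, at 10.06, lay among the treated values. The differences were -0.29 after SPC3833, -0.22 after SPC4061, -0.29 after SPC3847 and -0.09 after SPC4955 (limma adjusted p = 0.215, 0.301, 0.288 and 0.828). Over all settings and left-out arrays the SPC4061 value lay between -0.33 and -0.12, the latter without SPC4061 replicate 4. Their intervals reached as low as 0.675-fold and as high as 1.14-fold of saline.

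With SPC3833, 0 of the 10 genes were called, beside 3.71% of all genes higher and 3.35% lower, and 3 had an unadjusted limma p below 0.05. With SPC4061, 0 of the 10 were called in the limma fit, beside 8.73% of all genes higher and 2.74% lower, and 2 had an unadjusted p below 0.05. With SPC3847, 0 of the 10 were called in the limma fit, beside 1.84% and 1.49% of all genes, and 2 had an unadjusted p below 0.05. Non-overlapping and higher values with SPC3847 were found in 4.87% of all genes and in 0 of the 10. Median differences of the 10 were -0.00, 0.14 and 0.06 for these 3 oligonucleotides, beside 0.05, -0.02 and 0.02 over all genes.

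Whether the oligonucleotides differed from each other was tested directly in the 6 pairs, 60 tests in all, each adjusted over all 22361 genes. None passed in limma, and 6 had an unadjusted p below 0.05. Of all genes, the share with an unadjusted p below 0.05 was 19.7% for SPC4955 against SPC3847, 20.7% for SPC4955 against SPC4061 and 22.8% for SPC4061 against SPC3847. For the pairs with SPC3833 it was 20.1% against SPC4955, 34.4% against SPC4061 and 18.1% against SPC3847. In fold terms, 55 of the 60 intervals of the stress genes lay within 1.5-fold, beside 89.7% over all genes. The share of all genes called was 8.75% for SPC4955 against SPC4061, 7.55% for SPC4955 against SPC3847 and 6.74% for SPC4061 against SPC3847, the 3 pairs at equal dose. The nearest to the threshold was Atf3, higher with SPC4955 than with SPC3847 by 0.34 (95% interval 0.12 to 0.55, limma adjusted p = 0.054). Trib3 was higher in the same pair by 0.39 (95% interval 0.11 to 0.67, limma adjusted p = 0.0905). A p that misses the threshold does not show that the compounds acted alike.

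The Atf3 difference between SPC4955 and SPC3847 fell on either side of the threshold. It passed without SPC4955 replicate 3 (limma adjusted p = 0.0423), SPC4955 replicate 4 (0.048), SPC3847 replicate 1 (0.0492) or SPC3847 replicate 4 (0.0325), and without saline replicate 1 or 2, while without SPC4955 replicate 1 the difference was 0.26 (limma adjusted p = 0.172). It also did not pass without SPC4955 replicate 2 (limma adjusted p = 0.131), SPC3847 replicate 2 (0.153) or SPC3847 replicate 3 (0.147), nor in the fit of 8 arrays (0.179) or after median centring (0.0654). It passed after quantile normalization (0.0473), with the filter on dim genes (0.043), with array weights (0.0218) and with the width as a covariate (0.0401). Over 18 other settings and left-out arrays of these 2 groups, Atf3 passed in 9 and Trib3 in 4. The Trib3 difference passed without SPC4955 replicate 1 (limma adjusted p = 0.0195), without the 2 arrays that stood apart (0.0208), with array weights (0.0234) and with the width as a covariate (0.0338). Between SPC4955 and SPC4061, Atf3 differed by 0.25 (95% interval 0.03 to 0.47) and Trib3 by 0.21 (-0.07 to 0.49; limma adjusted p = 0.162 and 0.426). Pairs with SPC3833 also differ in dose, 5 against 10 mg/kg; in them the lowest limma adjusted p of the 10 genes was 0.234 against SPC4955, 0.184 against SPC4061 and 0.16 against SPC3847, where 5.82%, 16.9% and 6.36% of all genes were called.

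Over all 5 groups together, the limma F test called Atf3 (F = 5.27, adjusted p = 0.0269) and Trib3 (F = 4.47, adjusted p = 0.0446), 2 of 10, beside 23.8% of all genes. The other 8 had adjusted p between 0.14 and 0.804. Neither gene was called without saline replicate 2, saline replicate 4 or SPC4955 replicate 2. Atf3 was also not called without SPC4955 replicate 1. Trib3 was kept only without SPC4955 replicate 1 or 4, SPC3833 replicate 4, SPC4061 replicate 4, SPC3847 replicate 1 or SPC3847 replicate 4.

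Single livers varied around their group means, and the genes did so together in some pairs. Of 45 pairs of genes, the 4 with the lowest p are described, over 20 arrays and with permutations within groups in 2-sided tests. Dnajb9 varied with Hspa5 (Pearson r = 0.70, permutation p = 0.00241; Spearman rho = 0.69, permutation p = 0.00339) and with Xbp1 (r = 0.64, permutation p = 0.00076; rho = 0.69, permutation p = 0.00125). Adjusted over the 45 pairs, these permutation p-values were 0.0271 and 0.0381 for Hspa5, and 0.0243 and 0.0308 for Xbp1. Livers with more BiP message tended to have more of the co-chaperone's message, though the adjusted p depended on single arrays and on the setting. Without the 2 arrays whose deviation in Hspa5, or in Xbp1, lay farthest from the median, r with Dnajb9 was 0.66 in each pair.

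In the 2 other pairs the genes varied in opposite directions. Atf4 and Chac1 had r = -0.61 (permutation p = 0.00157, adjusted 0.0243) and rho = -0.72 (permutation p = 0.00137, adjusted 0.0308). Ddit3 and Asns had r = -0.73 (permutation p = 0.00162, adjusted 0.0243) and rho = -0.69 (permutation p = 0.0029, adjusted 0.0381). Without the 2 arrays farthest in Atf4, or in Ddit3, r was -0.63 and -0.59. After median centring r was 0.71 for Hspa5 and 0.68 for Xbp1 with Dnajb9, and -0.69 for Ddit3 and Asns, with an adjusted permutation p of 0.072 for each. Atf4 and Chac1 passed in none of 4 other settings: r was -0.48 after median centring (adjusted permutation p = 0.595), -0.28 after quantile normalization (0.49), -0.52 with the width of the distribution removed (0.193) and -0.59 without the 2 arrays that stood apart (0.0512). Over the 20 fits with 1 array left out, the adjusted permutation p reached 0.11 for Hspa5 and Dnajb9, 0.0641 for Xbp1 and Dnajb9, 0.0742 for Atf4 and Chac1, and 0.09 for Ddit3 and Asns. It was below 0.05 in 11, 17, 14 and 14 of these 20 fits, in that order. In the 4 other settings Hspa5 and Dnajb9 passed in 2, Xbp1 and Dnajb9 in 3, and Ddit3 and Asns in 2.

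**Figure D4:**
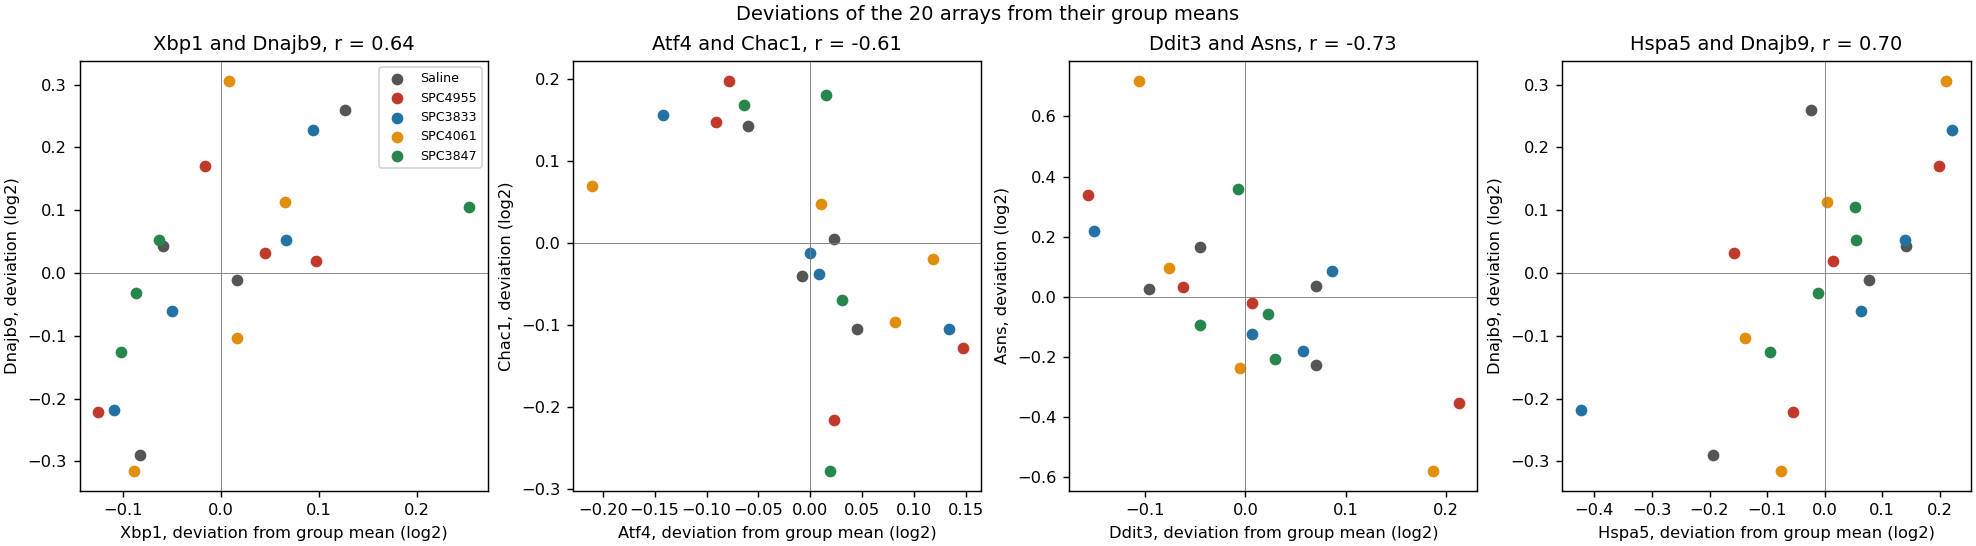
Deviation of each of the 20 arrays from its group mean, in log2 units, for the 4 pairs of genes with the lowest permutation p; colours mark the treatment group. Points rise together for Dnajb9 with Xbp1 and Hspa5 (r = 0.64 and 0.70) and run in opposite directions for Atf4 with Chac1 and Ddit3 with Asns (r = -0.61 and -0.73).

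For each of the 10 genes the most similar other row over the 20 arrays correlated between 0.74 (Asns) and 0.88 (Sesn2), and in no case was it another of the 10. Rows with r of at least 0.7 numbered 154 for Sesn2, 61 for Atf3 and 52 for Trib3, and 16 or fewer for the other 7. These correlations share the arrays and their widths and are given as a description.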

How the data were processed

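The authors deposited log2 intensities (the log scale is read from the range of the values), 1 per gene for each of 20 one-colour arrays and 22361 genes; the affy package was used, per the submitters' processing notes. How background and scaling were handled, and which probes make up a gene, is not stated in the sources used here. Signal over background is unknown, and precision rests on 4 arrays a group. Replicates are labelled biological.

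The 10 genes and the lists were chosen with earlier results of these data known. Their symbols came with that choice; the reference table pairs 0 of the row identifiers with symbols. So the wider pathway lists and the marker genes of hepatocytes and other cell types were not tested, the label liver was not checked against markers, and by the rule for naming genes only the 10 are named.

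A linear model with a mean per group was fitted with limma 3.58.1 in R 4.3.3 (15 residual degrees of freedom) to all genes, without filter or rescaling, after a test on simulated data. Intervals are limma's at 95%, unadjusted for the number of tests. Correlations used 100000 permutations within groups. The alternatives were other scalings, a filter on dim genes, 8-array fits, array weights, other statistics, a block, the distribution's width, and arrays left out.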

Additional observations from a re-analysis of the deposited data

Results flagged for a closer look

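Each of the 10 genes was examined in each group of 4 arrays, 50 groups of values, for a single array far from the others by Dixon's criterion at 95% (the gap to the nearest array over the range); chance marks about 1 in 20 groups. It marked 2, both in SPC3847 replicate 4. Atf4 was lowest there, at 7.87, beside 7.95, 7.95 and 7.97 in the other 3 livers (ratio 0.834). Xbp1 was highest there, at 11.47, beside 11.11, 11.13 and 11.15 (ratio 0.89). This array also had the narrowest distribution of the 20 (quartile range 2.70), and the part of that width in these 2 values was not tested.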

How the results depend on the processing

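Against saline, the arrays left out singly were those of the 2 groups compared, 8 for each oligonucleotide. None of these alternatives turned the direction of a called difference, and none called any of the 10 genes with SPC3847. Of the 40 differences from saline, 11, none of them called, turned direction in at least 1 setting, and the largest difference after a turn was 0.11 on the log2 scale. With SPC4955, 2 genes were called as reported, 1 after median centring, 1 with the ordinary statistic and 0 in the fit of 8 arrays. With each array of the 2 groups left out, the count lay between 1 and 2. After quantile normalization the 2 were Atf3 and Atf4. With SPC3833 the count went from 0 to 1 in the fit of 8 arrays and 1 with array weights (Trib3 in both). With SPC4061 it went from 0 to 1 after median centring, in the fit of 8 arrays and with array weights. It was also 1 with the width as a covariate and without the 2 arrays that stood apart. With each array of the 2 groups left out it lay between 0 and 1. Between oligonucleotides the count went from 0 to 1 after quantile normalization, with the filter on dim genes and without those 2 arrays, and to 2 with array weights and with the width as a covariate; it lay between 0 and 1 with each array left out. The F test called 2 genes as reported, 1 after median centring, quantile normalization or with the ordinary statistic, 3 with array weights, and between 0 and 2 with each array left out. The cause of these moves was not tested. The fits of 8 arrays and those with single arrays left out hold fewer samples, and calls were both lost and gained in them. In the fit of 8 arrays the F test has no value.

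The labels do not say whether the replicate numbers pair the mice. Same-numbered arrays of different groups had a median correlation of deviations of -0.03 over 40 pairs (range -0.50 to 0.52). For different-numbered pairs the median was 0.01, and 7 of 20 arrays correlated best with one of their own number. These correlations over all genes cannot decide whether mice were paired. With the replicate number as a block, 2 genes were called with SPC4955, 0 with each other oligonucleotide and 2 by the F test. Between oligonucleotides 1 was called with this block (Atf3, SPC4955 against SPC3847, limma adjusted p = 0.0362). The correlation settings were chosen after the data had been seen. The wider pathway lists were not run under any setting.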
